A study of Mus musculus with 8 samples.

Results

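The protocadherin genes were taken as every gene of the expression table whose symbol starts with Pcdh, which gave 71 of 24354 genes. Of these, 59 belonged to the clustered protocadherins, with 15 in the alpha class (Pcdha), 22 in the beta class (Pcdhb) and 22 in the gamma class (Pcdhg). The gamma class held 12 genes of the A type, 7 of the B type and 3 of the C type. The remaining 12 were non-clustered, with 4 of the delta-1 type (Pcdh1, Pcdh7, Pcdh9 and Pcdh11x), 5 of the delta-2 type (Pcdh8, Pcdh10, Pcdh17, Pcdh18 and Pcdh19) and 3 others (Pcdh12, Pcdh15 and Pcdh20). In RefSeq annotation of the GRCm38 build, the clustered genes matched there lay on chromosome 18, and 70 of the 71 symbols were matched.

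Protocadherins are transmembrane adhesion proteins of the cadherin superfamily and are best known from the nervous system. The clustered genes lie in tandem arrays in which each variable exon has its own promoter. In the alpha and gamma classes, the variable exon is spliced to exons that all members of the class share, whereas each beta gene is a single exon. In neurons, most variable exons are chosen differently from cell to cell, with CTCF, cohesin, and promoter DNA methylation involved in the choice, and the resulting sets of proteins let a neuron tell its own branches from those of its neighbors. The non-clustered delta protocadherins are separate genes that act in cell sorting, migration, and synapse formation.

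The study fused extended pluripotent stem cells (EPSCs) with neural stem cells (NSCs) and asked whether the somatic genome took on the state of the EPSCs. RNA sequencing covered 8 libraries, 2 from each of 4 groups. ESCs were of the E14 line, labelled wt, and were grown in serum with LIF on inactivated C3H mouse fibroblasts. NSCs carried the OG2+/−/ROSA26+/− transgenes, which give GFP from the Oct4 distal enhancer and lacZ in all cells, and were grown without feeders in N2 medium with EGF and FGF2. EPSCs (line 1, passage 15, also labelled wt) came from C57BL/6 8-cell embryos and were kept on C3H fibroblasts in N2B27-LCDM medium, which holds human LIF with the GSK3 inhibitor CHIR99021 and the drugs minocycline hydrochloride and dimethindene maleate. Hybrid cells (line 2-2, passage 10) were made from C57BL/6 EPSCs and NSCs with polyethylene glycol, picked as Oct4-GFP+ cells, near-tetraploid, and kept like the EPSCs. Whether their EPSC parent was the sequenced line is not given in the sources used here. Each group was 1 line, so the error given here is the spread between repeated libraries of that line and the p-values measure that spread alone.

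Expression was given as FPKM, fragments per kilobase of transcript per 1000000 mapped fragments. The depth was not among the values used, but the steps between low FPKM values corresponded to depths of 22 (EPSC replicate 1) to 32.5 (ESC replicate 1) in units of 1000000 fragments. Pluripotency markers (8 genes) summed to between 4723 and 5600 FPKM in the ESC, EPSC, and hybrid libraries and to at most 2.93 in the NSC libraries. Neural stem cell markers (8 genes) summed to at least 3772 FPKM in NSCs and at most 20.4 elsewhere. Markers of neurons (8 genes) summed to between 152 and 217 FPKM over the 8 libraries. Those of oligodendrocytes (8 genes) summed to 57.4 and 56.9 in NSCs, 8.35 and 8.94 in ESCs, 8.26 and 8.30 in EPSCs, and 12.2 and 10.9 in hybrid cells. Endothelial markers (8 genes) summed to 0.676 and 0.620 in NSCs, 32.5 and 33.6 in ESCs, 27.1 and 31.6 in EPSCs, and 32.3 and 46.6 in hybrid cells. The groups grown on feeders also carried fibroblast markers. The sum of 8 such genes (Col1a1, Col1a2, Col3a1, Thy1, Pdgfrb, Lum, Dcn, and Postn) was 11 and 12.2 FPKM in ESCs, 83.2 and 80.3 in EPSCs, 318 and 237 in hybrid cells, and 1.09 and 1.23 in NSCs. The list is not particular to feeder cells, since Postn is also one of the genes the study measured to tell EPSCs from ESCs. Without Postn and the collagens, a choice made after seeing the data, the sum of the other 4 genes was 6.20 and 6.65 FPKM in ESCs, 29.6 and 25.6 in EPSCs, 105 and 77.9 in hybrid cells, and 0.860 and 1.01 in NSCs, in the same order of groups. Of the 8 genes, 8 were higher in hybrid cells than in EPSCs by the test described next, as were 22.5% of all tested genes. In such bulk libraries, fewer cells of a type and less RNA per cell cannot be told apart.

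NSCs held most of the protocadherin RNA. The 71 genes summed to 472 and 491 FPKM in the NSC libraries, 14.3 and 15.8 in ESCs, 24.8 and 25.1 in EPSCs, and 39.9 and 35.1 in hybrid cells. The NSC libraries were thus far above the 6 others, and the 2 hybrid libraries were above the 2 EPSC libraries. Both NSC libraries exceeded all 6 others in 51 of the 71 genes, against 30.3% of the 19144 genes detected in any library. The class with the most complete pattern was beta (22 of 22), and the count was 7 of 7 for gamma-B, 4 of 12 for gamma-A, 2 of 3 for gamma-C, 8 of 15 for alpha, and 8 of 12 for the non-clustered genes. Leaving the alpha class aside, the count was 43 of 56.

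**Figure D1:**
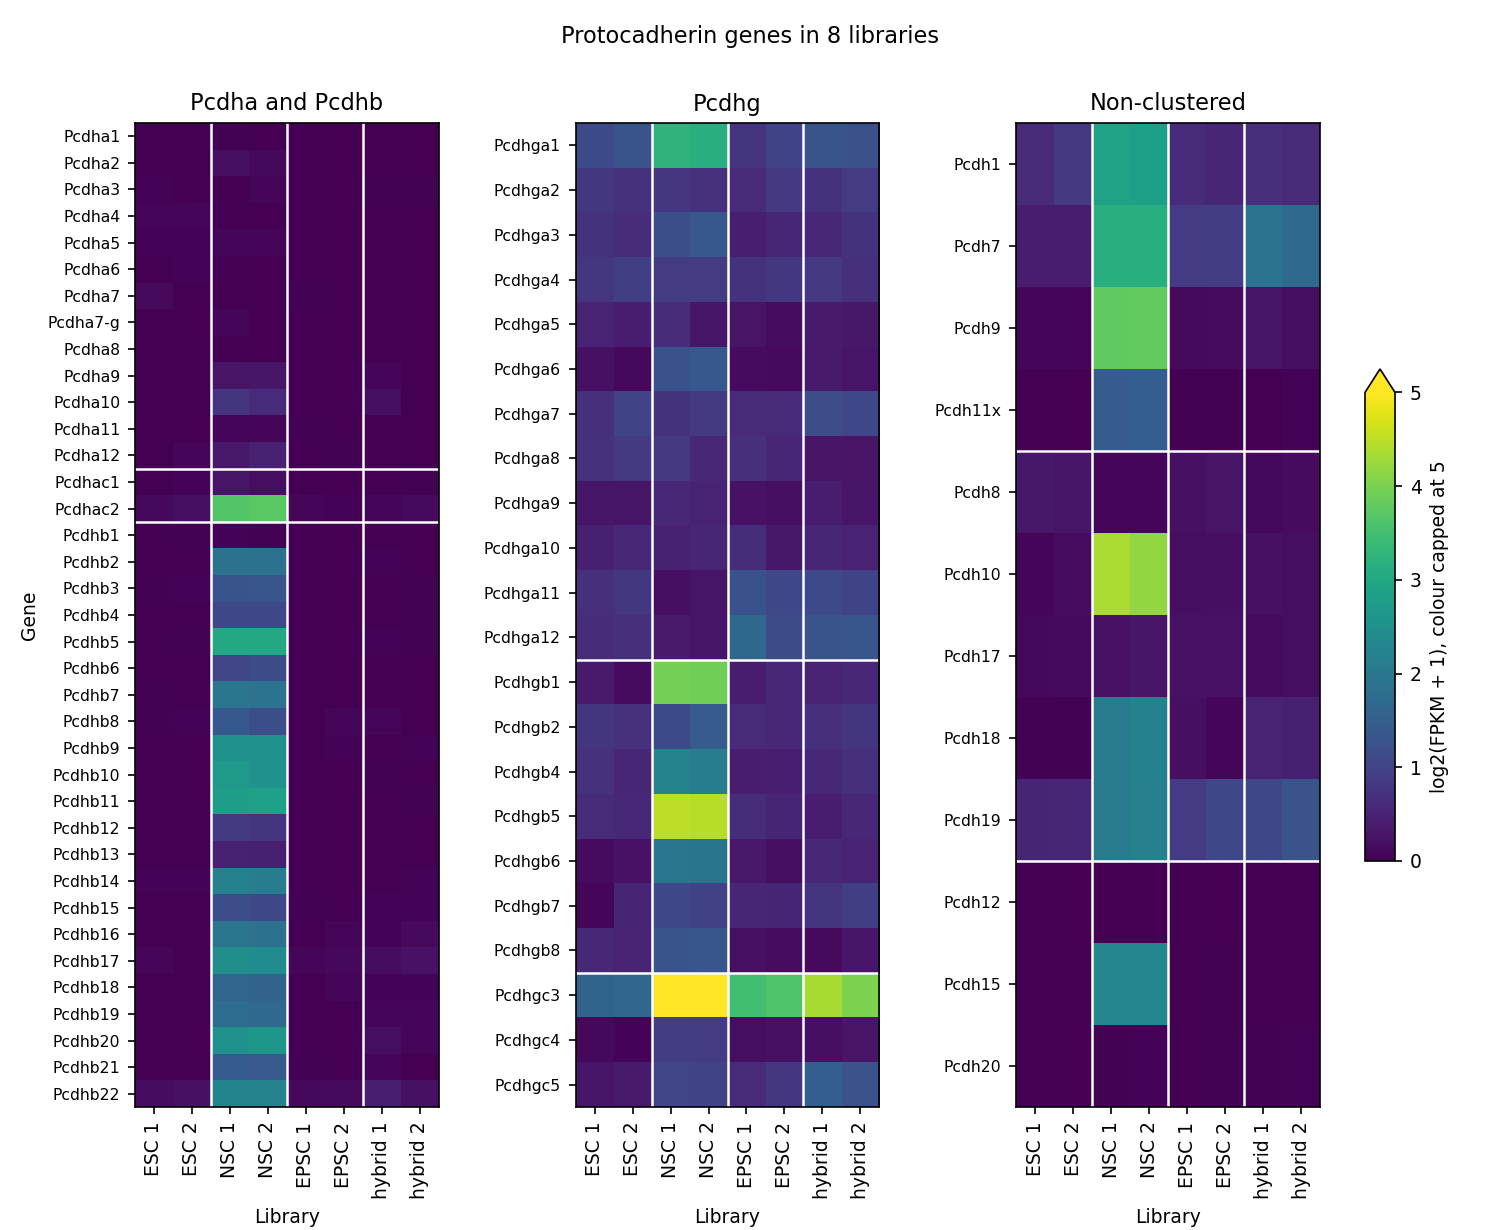
Level of each of the 71 protocadherin genes (rows) in each of the 8 libraries (columns), as log2(FPKM + 1) with the color capped at 5; white lines separate the groups of libraries and the types of genes. The NSC columns stand out in the beta genes, Pcdhac2, several gamma genes, and most non-clustered genes, while Pcdhgc3 is the one gene bright in EPSCs and hybrid cells as well.

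**Figure D2:**
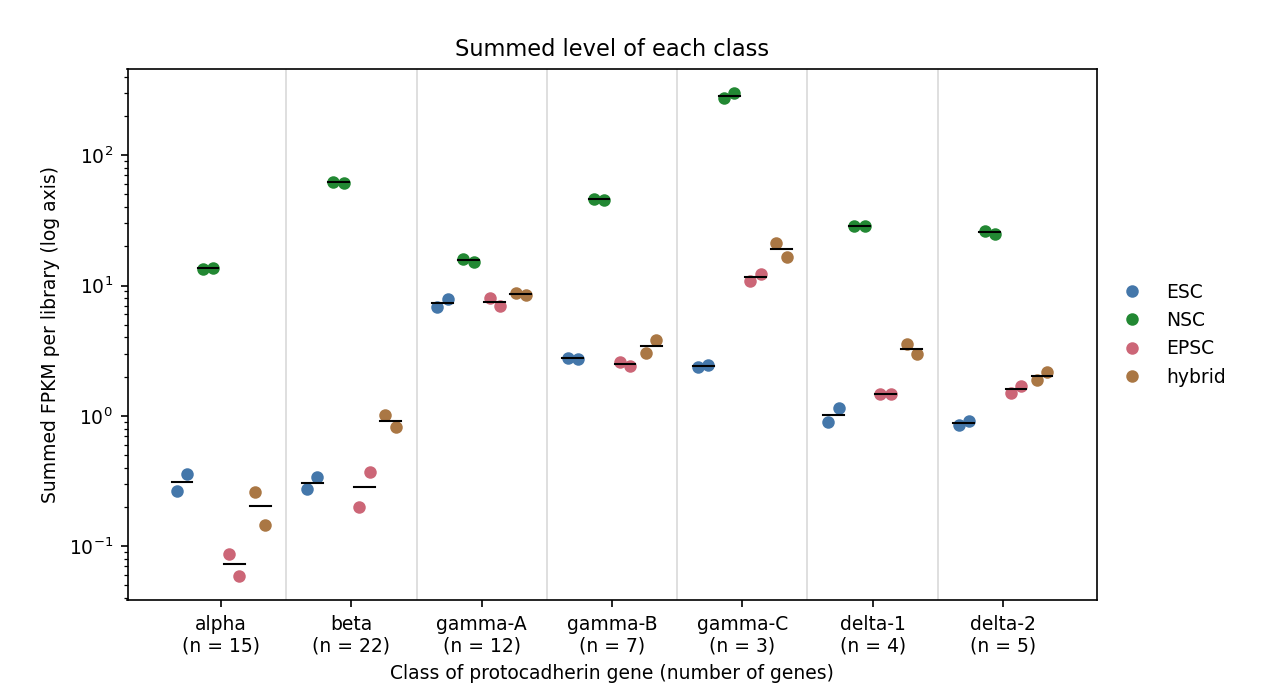
Summed FPKM of each class per library on a log axis (points, 2 libraries per group) with the group mean (black line). NSCs lie highest in every class shown, and the distance is smallest for gamma-A, where the means run from 7.38 FPKM in ESCs to 15.7 in NSCs.

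Groups were compared with limma, a linear model with shared variance estimates, on log2(FPKM + 1). It took in the 13239 genes whose mean reached 1 FPKM in at least 1 group, and a gene was called at a Benjamini-Hochberg adjusted p under 0.05. The rule of the study's methods was applied as well, as a mean above 3 FPKM where the gene was higher and more than 3 times the other mean (the fold rule below). Of the 71 genes, 43 entered the test, 1 alpha, 19 beta, 15 gamma, and 8 non-clustered. Since 35 of the 43 entered through their NSC level alone, they were bound to differ from NSCs, and their number is given as a description. Against NSCs, 40 of the 43 were lower and 2 higher in EPSCs (41.0% and 45.2% of all tested genes), 38 lower and 4 higher in hybrid cells (42.0% and 44.5%), and 40 lower and 1 higher in ESCs (41.9% and 42.8%). By the fold rule, 21 genes were lower in EPSCs than in NSCs (11.4% of detected genes), 20 in hybrid cells (11.3%), and 21 in ESCs (11.0%). With libraries scaled to equal sums of FPKM, which raises the NSC values most against the fixed level of 3, 35 genes were lower than in NSCs in each comparison, against 18.8% (EPSCs), 19.0% (hybrid cells), and 18.0% (ESCs) of detected genes.

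In NSCs, the alpha class was represented almost entirely by Pcdhac2, 1 of the 2 C-type alpha genes. Pcdhac2 was at 11.7 and 12.1 FPKM in NSCs, 0.0719 and 0.155 in ESCs, 0.0420 and 0.0347 in EPSCs, and 0.0482 and 0.0934 in hybrid cells. The NSC values lay far above all others, and Pcdhac2 made up 88.2% of the alpha sum there. Its share of the far lower sums elsewhere was 27.0% and 43.1% in ESCs, 47.7% and 58.9% in EPSCs, and 18.5% and 64.7% in hybrid cells. The other C-type gene, Pcdhac1, reached 0.211 and 0.145 FPKM in NSCs, and the highest of the remaining genes were Pcdha10 with 0.689 and 0.532, Pcdha12 with 0.271 and 0.368, and Pcdha9 with 0.207 and 0.227. Of the 120 alpha values, 78 were below 1e-04 FPKM, which are leftovers of the estimation rather than levels. Some of the alpha genes counted above as higher in NSCs had such values in all or most other libraries, so that count compares low NSC levels with values near 0. Alpha transcripts share a median of 53.5% of their length with other members and gamma transcripts 44.8% (GENCODE M21 exons used by at least 5 members), so the split of reads between the members of these classes is an estimate, and levels of single alpha and gamma genes are uncertain to that extent.

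The beta genes were expressed broadly in NSCs and nearly absent elsewhere. In NSCs, 19 of the 22 had a mean of at least 1 FPKM, led by Pcdhb5 (7.14 and 7.07), Pcdhb11 (6.01 and 6.22), Pcdhb10 (5.49 and 4.74), Pcdhb20 (4.75 and 5.23), and Pcdhb9 (4.92 and 4.68). No single gene dominated, and the number of equally expressed genes that would give the same evenness (inverse Simpson index) was 15.2 and 14.9 of 22. Outside NSCs, the beta gene with the highest mean in each group was Pcdhb22, with 0.118 and 0.164 FPKM in ESCs, 0.0788 and 0.0910 in EPSCs, and 0.334 and 0.169 in hybrid cells. Both hybrid libraries lay above the 4 ESC and EPSC libraries for this gene, but hybrid replicate 2 only barely exceeded ESC replicate 2 (0.169 against 0.164 FPKM). Pcdhb22 was not called between hybrid cells and ESCs (limma adjusted p = 0.187).

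Because each beta gene is a single exon, its FPKM values could be turned back into fragments. All 66 values above 0 and under 15 fragments fell within 0.1 of a whole number. The 22 genes together had 5833 and 5687 fragments in NSCs, 27 and 30 in ESCs, 14 and 29 in EPSCs, and 76 and 65 in hybrid cells. Per 1000000 fragments, this was 3.18 (95% exact Poisson interval 2.51 to 3.98) and 2.85 (2.2 to 3.63) in hybrid cells, 0.636 (0.348 to 1.07) and 1.27 (0.848 to 1.82) in EPSCs, and 0.831 (0.547 to 1.21) and 1.00 (0.677 to 1.43) in ESCs. The intervals cover counting error only. The intervals of the hybrid libraries did not overlap those of the EPSC and ESC libraries. The mean in hybrid cells was 3.17 times that in EPSCs and 1.5% of that in NSCs (1.48% from the FPKM sums and 0.964% with these scaled to equal library sums), and the ratio to EPSCs was 4.74 without EPSC replicate 2 and 2.38 without EPSC replicate 1. Without Pcdhb22 the ratio was 3.24. With 2 libraries against 2, an exact permutation test cannot go below a p of 0.333, so no p is given for this sum. The fibroblast marker sum was higher in the hybrid libraries too, and its part in the beta sum was not tested. No single beta gene was called between hybrid cells and EPSCs.

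The gamma class was dominated by Pcdhgc3 in NSCs. Pcdhgc3, a C-type gene that is expressed widely rather than chosen cell by cell (chr18:37806410-37841873), was at 273 and 297 FPKM in NSCs, 2.06 and 2.14 in ESCs, 10.3 and 11.3 in EPSCs, and 19.4 and 15.1 in hybrid cells. The 4 groups did not overlap, in the order ESC, EPSC, hybrid, NSC. Its mean share of the gamma sum was 81.7% in NSCs but 16.8% in ESCs. In hybrid cells it was 58.5% and 52.1%, against 47.7% and 52.4% for EPSCs. Relative to NSCs, the log2(FPKM + 1) of Pcdhgc3 differed by −4.60 ± 0.11 (SE) in EPSCs (adjusted p = 1.85e-08) and by −3.98 ± 0.11 in hybrid cells (adjusted p = 3.85e-08), and the gene had a mean of at least 1 FPKM in all 4 groups. The other C-type genes were low in NSCs, Pcdhgc4 with 0.866 and 0.846 and Pcdhgc5 with 1.06 and 1.02 FPKM.

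The gamma-B genes were carried by Pcdhgb5 (21.6 and 21.2 FPKM) and Pcdhgb1 (14.4 and 14) in NSCs, which made up 77.5% of the gamma-B sum there. In the other groups these genes were between 0.106 and 0.572 FPKM, and their share was 24.8% in hybrid cells, 36.1% in EPSCs, and 26% in ESCs. Pcdhgb4, the next gene, was at 3.71 and 3.29 FPKM in NSCs and between 0.323 and 0.636 elsewhere.

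The gamma-A genes differed least between the groups. Their sum was 16.1 and 15.2 FPKM in NSCs, 6.89 and 7.86 in ESCs, 8.0 and 6.91 in EPSCs, and 8.77 and 8.39 in hybrid cells. The NSC excess was mostly Pcdhga1, at 8.54 and 7.83 FPKM in NSCs, 1.18 and 1.46 in ESCs, 0.680 and 1.05 in EPSCs, and 1.46 and 1.35 in hybrid cells. Spread over the members differed as well, with an inverse Simpson index of 3.25 and 3.38 of 12 genes in NSCs and between 7.0 and 9.97 elsewhere.

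A pair of gamma-A genes went the other way. Pcdhga12 was at 0.283 and 0.217 FPKM in NSCs, 0.556 and 0.620 in ESCs, 2.2 and 1.21 in EPSCs, and 1.46 and 1.54 in hybrid cells. Pcdhga11, which lies close to it in the array with Pcdhgb8 between, was at 0.148 and 0.221 in NSCs, 0.603 and 0.763 in ESCs, 1.40 and 1.08 in EPSCs, and 1.16 and 0.998 in hybrid cells. Both NSC libraries lay below all 6 others for each gene. On the log2(FPKM + 1) scale, which understates the change of low genes, Pcdhga12 was higher than in NSCs by 1.09 ± 0.15 (SE) in EPSCs and by 0.999 ± 0.15 in hybrid cells, and Pcdhga11 by 0.92 ± 0.10 and 0.81 ± 0.10. Both genes entered the test through their EPSC and hybrid levels alone, so these differences are given as a description.

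Among the non-clustered genes, the delta protocadherins Pcdh10, Pcdh9, Pcdh7, and Pcdh1 had the highest levels in NSCs. Pcdh10, which binds the WAVE actin regulators through its cytoplasmic tail, was at 19.7 and 17.3 FPKM in NSCs, 0.0513 and 0.118 in ESCs, 0.144 and 0.160 in EPSCs, and 0.175 and 0.139 in hybrid cells. Pcdh9, one of the delta-1 genes, whose proteins carry a motif that binds protein phosphatase 1 alpha, was at 12.7 and 12.9 FPKM in NSCs and, at far lower levels, 0.0467 and 0.0513 in ESCs, 0.0943 and 0.107 in EPSCs, and 0.217 and 0.134 in hybrid cells, without overlap and in the order of the fibroblast marker sum. The hybrid level was 0.85% of the NSC level for Pcdh10 and 1.37% for Pcdh9, and 0.552% and 0.886% with libraries scaled to equal sums of FPKM. Pcdh1 was at 6.37 and 6.10 FPKM in NSCs and between 0.458 and 0.771 elsewhere, with the hybrid values of 0.595 and 0.534 inside the range of ESCs and EPSCs.

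Pcdh15, whose product forms part of the tip links of hair cells, was at 3.88 and 3.93 FPKM in NSCs and at most 0.0183 elsewhere. Pcdh11x, an X-linked delta-1 gene, was at 1.73 and 1.83 in NSCs and at most 0.0313 elsewhere. For both genes the 6 other libraries were near 0, with the EPSC and hybrid libraries overlapping and both ESC libraries below the hybrid ones.

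Pcdh7, Pcdh18, and Pcdh19 were at intermediate levels in hybrid cells. Pcdh7 was at 7.80 and 7.90 FPKM in NSCs, 0.306 and 0.327 in ESCs, 0.823 and 0.876 in EPSCs, and 2.74 and 2.30 in hybrid cells. Pcdh18, whose product binds the adaptor Dab1, was at 3.20 and 3.60 in NSCs, 0.0248 and 0.0271 in ESCs, 0.145 and 0.0612 in EPSCs, and 0.392 and 0.353 in hybrid cells. Pcdh19, the gene mutated in a female-limited epilepsy, was at 3.24 and 3.54 in NSCs, 0.438 and 0.454 in ESCs, 0.863 and 1.09 in EPSCs, and 1.13 and 1.44 in hybrid cells. For all 3 genes the groups did not overlap and stood in the order ESC, EPSC, hybrid, NSC, which is also the order of the fibroblast marker sum among the 3 groups grown on feeders. The hybrid level as a share of the NSC level was 32.1% for Pcdh7, 11% for Pcdh18, and 37.9% for Pcdh19. The NSC libraries had lower FPKM sums than the others, and with all libraries scaled to equal sums these shares were 20.8%, 7.13%, and 24.6%. In hybrid cells against NSCs, Pcdh7 differed by −1.33 ± 0.08 (SE, adjusted p = 2.2e-06) and Pcdh19 by −0.94 ± 0.10 (adjusted p = 3.84e-05).

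**Figure D3:**
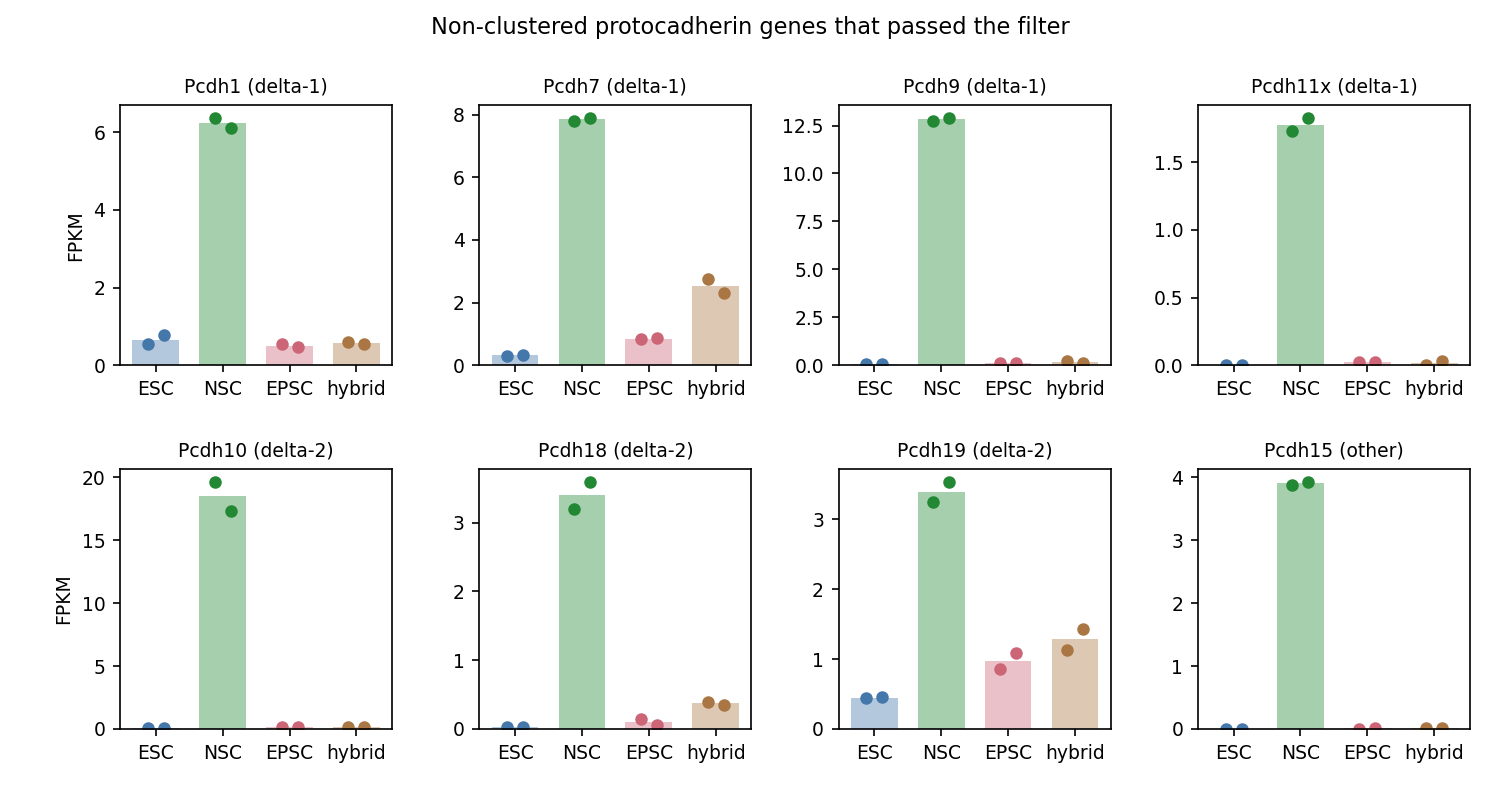
FPKM of the 8 non-clustered genes that entered the test (points, 2 libraries per group; bars, group mean; each panel has its own axis from 0). All 8 are highest in NSCs, and Pcdh7, Pcdh18, and Pcdh19 have the tallest hybrid bars relative to NSCs.

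The non-clustered genes that did not enter the test were low throughout. Pcdh17 was between 0.0830 and 0.237 FPKM over the 8 libraries, Pcdh20 was at most 0.0349, and Pcdh12 was above 0 in 1 ESC library only. Pcdh8, known from the paraxial mesoderm, was the one delta gene lowest in NSCs, with 0.0461 and 0.0592 FPKM there, 0.253 and 0.220 in ESCs, 0.167 and 0.198 in EPSCs, and 0.0828 and 0.104 in hybrid cells. The groups did not overlap for Pcdh8.

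Promoters are shown for a gene that stayed near 0 in hybrid cells (Pcdh10) and for those called higher in hybrid cells than in EPSCs among the non-clustered genes (Pcdh7 and Pcdh18, below). Each runs from 250 bases before to 50 bases after a RefSeq start in the GRCm38.p6 build, 5′ to 3′ on the gene's strand, with each CG dinucleotide, the site of DNA methylation, in capitals. The Pcdh10 promoter (chr3:45378148-45378447, plus strand) holds 24 CG, the Pcdh7 promoter (chr5:57717831-57718130, plus strand) 11, and the Pcdh18 promoter (chr3:49757267-49757566, minus strand) 23.
Pcdh10: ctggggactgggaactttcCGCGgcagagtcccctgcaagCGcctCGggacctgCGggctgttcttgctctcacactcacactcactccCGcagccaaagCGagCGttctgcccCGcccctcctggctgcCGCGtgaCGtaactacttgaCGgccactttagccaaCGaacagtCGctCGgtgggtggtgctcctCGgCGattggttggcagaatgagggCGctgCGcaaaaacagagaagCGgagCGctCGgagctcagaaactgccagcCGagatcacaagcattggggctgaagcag
Pcdh7: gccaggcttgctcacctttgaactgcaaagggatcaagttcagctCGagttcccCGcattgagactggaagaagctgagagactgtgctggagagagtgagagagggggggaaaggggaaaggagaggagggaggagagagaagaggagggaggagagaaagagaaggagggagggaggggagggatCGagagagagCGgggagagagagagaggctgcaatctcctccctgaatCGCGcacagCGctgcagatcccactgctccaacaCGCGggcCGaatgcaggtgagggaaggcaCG
Pcdh18: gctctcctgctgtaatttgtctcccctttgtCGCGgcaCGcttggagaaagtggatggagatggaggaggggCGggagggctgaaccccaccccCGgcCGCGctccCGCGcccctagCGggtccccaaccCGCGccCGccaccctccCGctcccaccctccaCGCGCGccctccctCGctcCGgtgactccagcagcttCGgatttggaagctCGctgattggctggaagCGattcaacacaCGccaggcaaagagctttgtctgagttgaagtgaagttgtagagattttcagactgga

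Such promoter sequences were read for 9 non-clustered genes. Promoters on chromosome 18 were left out throughout, so Pcdh1 and Pcdh12 were not read. Of the 9 genes, 7 held at least 10 CG in any promoter read, against 43.5% of the 32851 single promoters compared. The median over the promoters compared was 7 CG. The letters TATAAA on either strand were found in the promoters of Pcdh8 and Pcdh15 and in 13.6% of the promoters compared. No methylation was measured here, and a count of letters says nothing of the state of a promoter.

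The comparison of hybrid cells with EPSCs asked which protocadherin genes differed between these lines. Of the 43 tested genes, 7 were higher in hybrid cells (22.5% of all tested genes were) and 0 lower (21.9%), with 9 at an unadjusted p under 0.05. With no filter on low genes, Pcdh8 was called lower (adjusted p = 0.0222). With libraries scaled to equal sums of FPKM, Pcdhga8 was called lower, with unscaled means of 0.198 FPKM in hybrid cells and 0.527 in EPSCs. The 35 genes that entered through NSCs alone had means below 1 FPKM in both groups, and 2 of them were higher. Of the 8 that entered through another group, 5 were higher. All 8 had a mean of at least 1 FPKM in hybrid cells, but only 3 did in EPSCs. Entry thus favored higher values in hybrid cells, and this count is given as a description. By the fold rule no protocadherin was higher or lower, against 0.721% and 0.381% of detected genes, but only Pcdhgc3 had a mean above 3 FPKM in either group and could have passed. The median difference was 0.04 over the 43 genes and 0.00 over all tested genes on the log2(FPKM + 1) scale. Leaving the alpha class aside, both hybrid libraries exceeded both EPSC libraries in 24 of 56 genes (29.4% of detected genes) and fell below them in 3 (27.5%).

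The 7 called genes were the delta genes Pcdh7 and Pcdh18, the C-type genes Pcdhgc3 and Pcdhgc5, and Pcdhga1, Pcdhga7, and Pcdhgb6. Pcdh7 had the largest difference, 0.93 ± 0.08 (SE, adjusted p = 0.000352), a ratio of means of 2.97. For Pcdhgc3 the difference was 0.62 ± 0.11 (adjusted p = 0.00458), a ratio of 1.60. Pcdhgc5 was at 1.80 and 1.42 FPKM in hybrid cells, against 0.537 and 0.725 in EPSCs, and 0.220 and 0.280 in ESCs, a difference from EPSCs of 0.68 ± 0.10 (adjusted p = 0.00172). Its hybrid values lay above all 6 other libraries, as did those of Pcdhga7, given next. Pcdhga7 was at 1.27 and 1.08 FPKM in hybrid cells, against 0.526 and 0.512 in EPSCs, 0.653 and 0.800 in NSCs, and 0.604 and 1.02 in ESCs, a difference from EPSCs of 0.52. Pcdhga7 entered the test through its hybrid level alone, which favored a higher value in hybrid cells, so its call is given as a description. With no filter on low genes its adjusted p was 0.0212. Pcdh7, Pcdhgc3, and Pcdhgc5 were called in all settings in which they were tested.

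The calls of Pcdh18, Pcdhgb6, and Pcdhga1 rested on single libraries or settings. With all libraries kept, Pcdhga1 was not called with no filter on low genes (adjusted p = 0.0657), under quantile normalization (adjusted p = 0.0742), or with these 2 groups alone (adjusted p = 0.114). Pcdhgb6 was not called under quantile normalization (adjusted p = 0.0557). Pcdh18 differed by 0.32 ± 0.08 (adjusted p = 0.0131), a ratio of 3.61 at low levels, and had an adjusted p of 0.0642 without EPSC replicate 2. Pcdhgb6 was at 0.462 and 0.421 FPKM in hybrid cells, against 0.259 and 0.138 in EPSCs (0.27 ± 0.08, adjusted p = 0.0261), with an adjusted p of 0.12 without EPSC replicate 2 and 0.0777 without hybrid replicate 1. Pcdhga1 differed by 0.38 ± 0.12 (adjusted p = 0.0347) and was not called in 7 of the 8 settings that left out a library, with adjusted p between 0.0524 and 0.155. Without EPSC replicate 2, Pcdhga12 was called lower in hybrid cells (adjusted p = 0.0216), against a difference of −0.09 with both libraries. Pcdhgb7, named after its values were seen, was called higher without ESC replicate 1 (adjusted p = 0.0359) or ESC replicate 2 (adjusted p = 0.0353), and Pcdhb22 without hybrid replicate 2. Pcdh19 was not called (0.21 ± 0.10, adjusted p = 0.116).

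**Figure D4:**
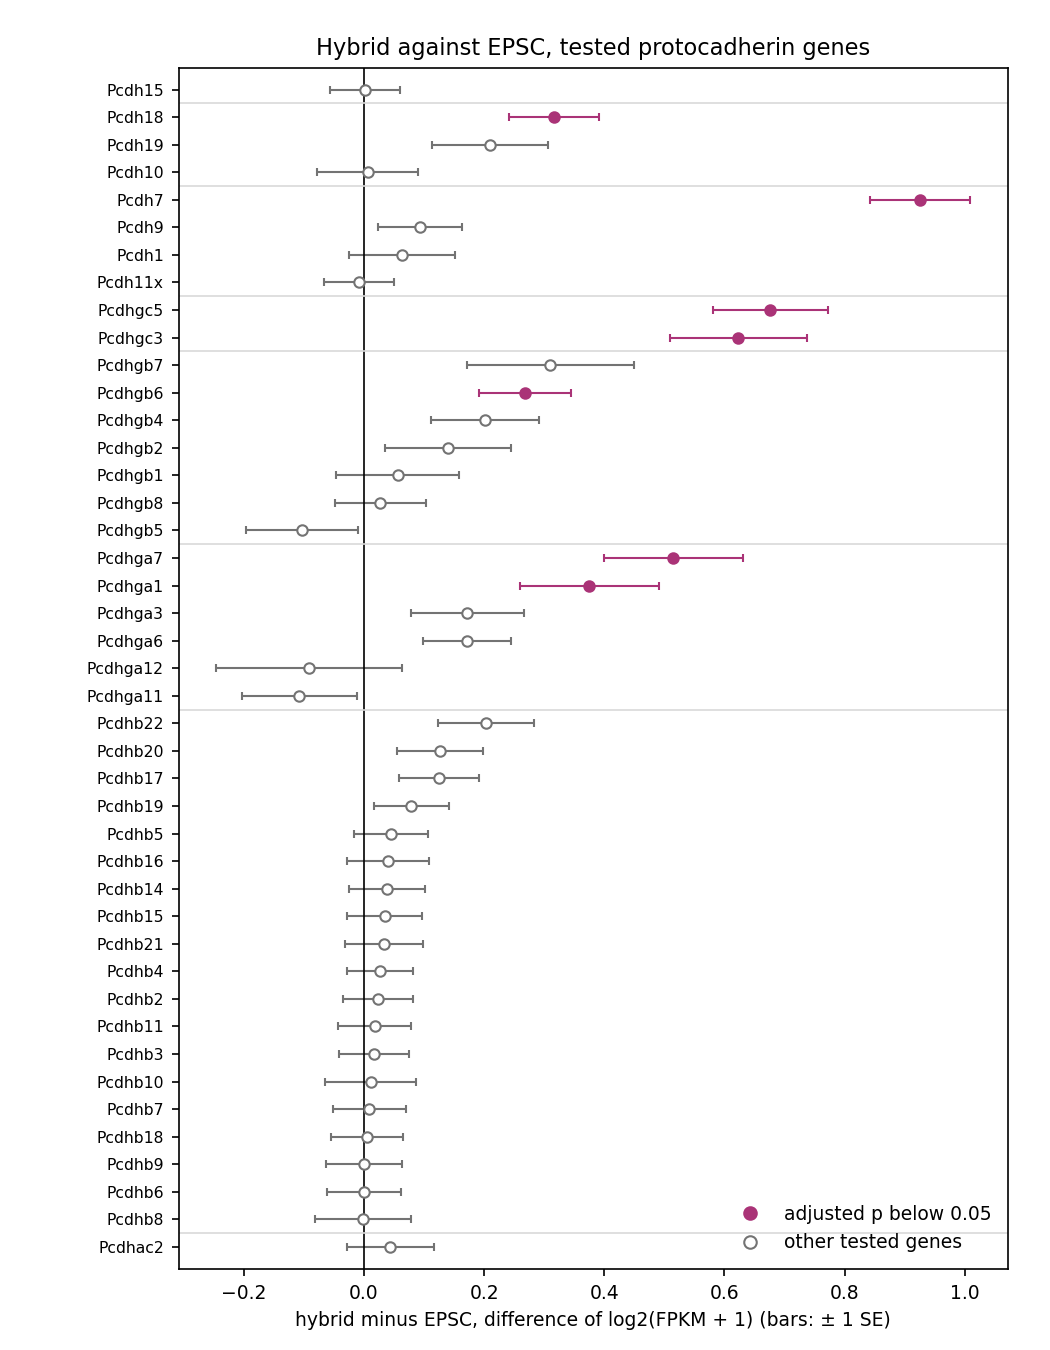
Difference between hybrid cells and EPSCs in log2(FPKM + 1) for the 43 tested protocadherin genes, with bars of ± 1 SE; filled points have an adjusted p below 0.05, and grey lines separate the types of genes. The 7 filled points all lie to the right of 0, with Pcdh7 farthest at 0.93.

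Against NSCs, Pcdhgc5 was higher in hybrid cells too, by 0.35 ± 0.10 (adjusted p = 0.00934). With libraries scaled to equal sums, its adjusted p was 0.990. The difference of Pcdhga7 from NSCs was 0.33, again a description, since its hybrid level brought it into the test. This difference was 0.045 with libraries scaled to equal sums (limma adjusted p = 0.791) and 0.264 under quantile normalization (limma adjusted p = 0.0925). Without NSC replicate 1 or without hybrid replicate 1, it was 0.27.

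The genes higher in hybrid cells were measured beside fibroblast markers that moved the same way. Of the 8 markers, 8 were called higher in hybrid cells than in EPSCs (22.5% of all tested genes) and 6 passed the fold rule (0.721% of detected genes). Lum was at 18.4 and 16.7 FPKM in hybrid cells, against 5.03 and 4.02 in EPSCs, and 0.00 and 0.0178 in ESCs. NSCs had almost no fibroblast marker RNA and the highest levels of Pcdh7, Pcdh18, and Pcdhgc3. Pcdhga2, Pcdhga10, and Pcdh20 also had their highest mean in hybrid cells, but their hybrid libraries overlapped other groups and they did not enter the test. The part of the feeder cells in the hybrid and EPSC values was not tested.

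**Figure D5:**
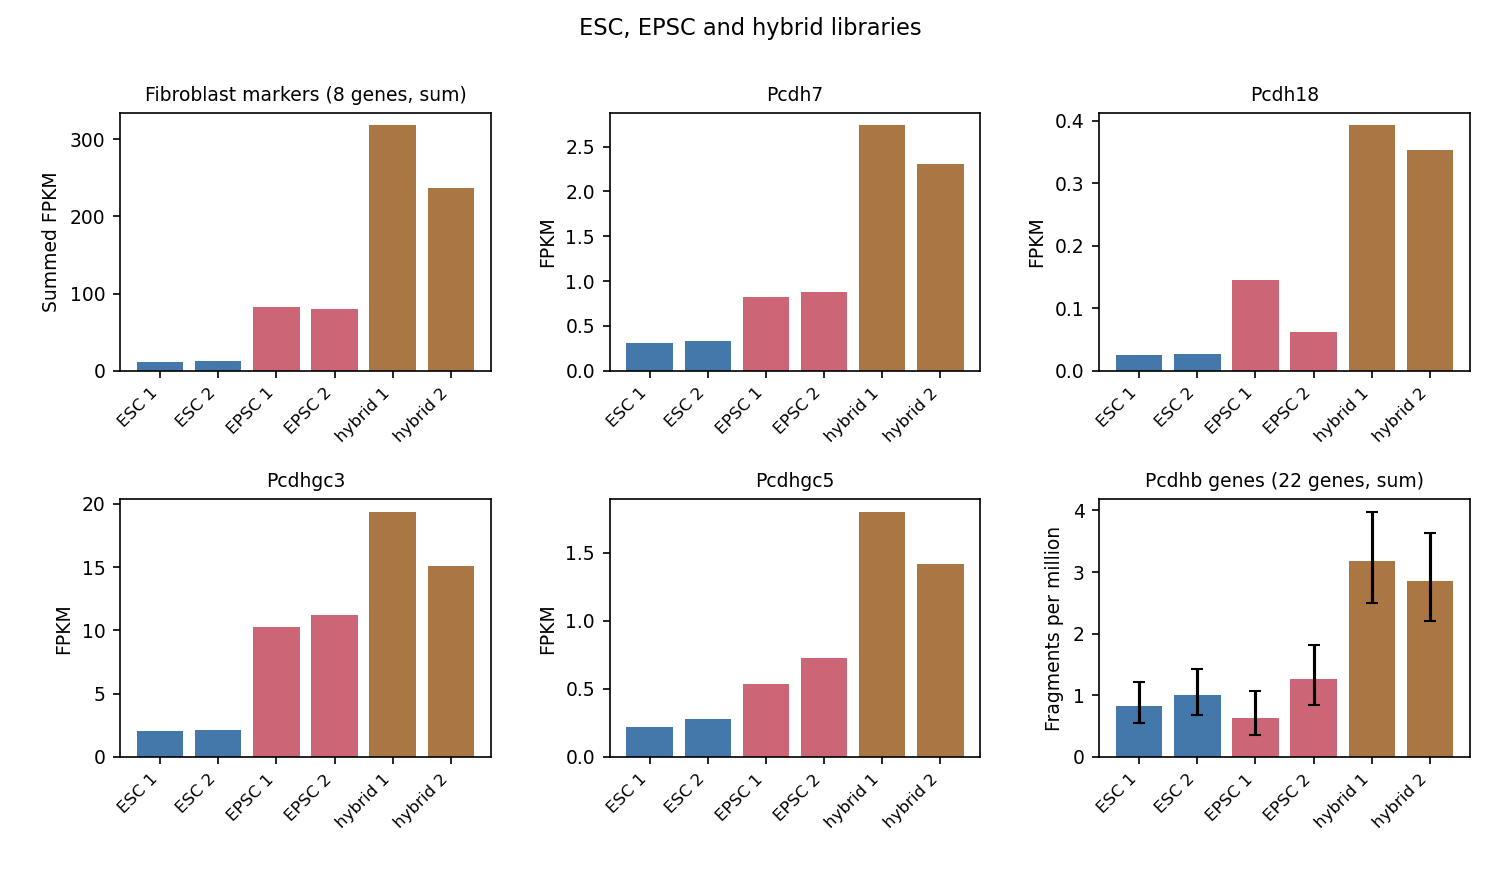
Fibroblast marker sum (8 genes), 4 protocadherin genes (FPKM), and beta fragments per 1000000 (error bars, 95% exact Poisson interval) in each ESC, EPSC, and hybrid library; NSCs are left out for scale. In each panel both hybrid bars stand above the 4 others, and the marker sum runs from 11 in ESC replicate 1 to 318 in hybrid replicate 1.

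EPSCs and ESCs, both pluripotent but of different lines and grown in different media, were compared next. Of the 43 tested genes, 6 were higher in EPSCs (33.7% of all tested genes) and 2 lower (27.3%). Of the 35 that entered through NSCs alone and were below 1 FPKM in both groups, 1 was called, and of the other 8, 6 were higher and 1 lower. Pcdhgc3, the one gene with a mean above 3 FPKM, was past the fold rule (1.63% of detected genes), higher by 1.92 ± 0.11 (adjusted p = 1.71e-05), a ratio of 5.12. The other higher genes were Pcdhga12 (0.74 ± 0.15, adjusted p = 0.00454), Pcdh7 (0.49 ± 0.08, adjusted p = 0.00181), Pcdh19 (0.45 ± 0.10, adjusted p = 0.00535), Pcdhga11, and Pcdhgc5. Pcdhga11 and Pcdhga12 entered the test through EPSCs and hybrid cells, which favored this direction here and against ESCs in hybrid cells. Pcdhga11 had an adjusted p of 0.00775, and 0.0580 without ESC replicate 1. Pcdhgc5 had an adjusted p of 0.0106, and 0.0670 without ESC replicate 1 and 0.0588 without EPSC replicate 2.

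The 2 lower genes were Pcdhga1 and Pcdhgb8, the latter named after its values were seen. Pcdhgb8 was at 0.162 and 0.119 FPKM in EPSCs and 0.465 and 0.413 in ESCs (−0.34 ± 0.08, adjusted p = 0.00675). Pcdhga1 had an adjusted p of 0.0439, and 0.0767 with no filter on low genes and 0.0844 with these 2 groups alone. It was not called in 6 of the 8 settings that left out a library. Without ESC replicate 1, Pcdhga7 was called lower (adjusted p = 0.0199), and without ESC replicate 2, Pcdhgb7 was called higher (adjusted p = 0.0172).

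In hybrid cells against ESCs, 10 genes were higher (35.3% of all tested genes) and 1, Pcdhgb8, lower (30.2%). Pcdhgc3 was again past the fold rule (2.52% of detected genes), with a difference of 2.55 ± 0.11 (adjusted p = 4.16e-06). Pcdh7 was higher by 1.42 ± 0.08 (adjusted p = 1.13e-05) and Pcdhgc5 by 1.06 ± 0.10 (adjusted p = 7.22e-05). Pcdh19 was higher by 0.66 ± 0.10 (adjusted p = 0.000713), Pcdhga12 by 0.65 ± 0.15 (adjusted p = 0.00737), and Pcdh18 by 0.42 ± 0.08 (adjusted p = 0.00197). The comparisons of EPSCs and of hybrid cells with ESCs share the ESC libraries. The remaining higher genes were Pcdhga11, Pcdhgb1, Pcdhgb6, and Pcdhgb7. Of these, Pcdhga11 had an adjusted p of 0.143 without ESC replicate 1 and 0.105 without hybrid replicate 1, and Pcdhgb6 had 0.0517 without ESC replicate 1. Pcdhgb1 was lost in 5 of the 8 settings that left out a library (adjusted p up to 0.256), and Pcdhgb7 had 0.0557 without hybrid replicate 2. Pcdhgb8 had an adjusted p of 0.0522 without ESC replicate 1. Pcdh9 was called higher without NSC replicate 1 (adjusted p = 0.0494) or hybrid replicate 2 (adjusted p = 0.0460).

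Genes that act on protocadherin promoters were measured in the same libraries. Of 15 listed regulators, 14 were matched in the table and tested, and against EPSCs 2 were higher and 6 lower in hybrid cells (22.5% and 21.9% of all tested genes). Dnmt3b, a de novo DNA methyltransferase that methylates clustered protocadherin promoters in the embryo, was at 1.36 and 1.11 FPKM in NSCs, 44.2 and 43.7 in ESCs, 87.7 and 63.5 in EPSCs, and 90.0 and 70.8 in hybrid cells. Its relative Dnmt3a was highest in NSCs, at 16.0 and 16.6 FPKM, with 10.9 and 10.5 in ESCs, and was at 7.10 and 4.40 in hybrid cells, against 13.3 and 11.2 in EPSCs (−1.0 ± 0.18, adjusted p = 0.00389).

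Smchd1, a chromatin protein known to repress the clusters, was at 10.3 and 10.8 FPKM in hybrid cells, against 17.1 and 17.8 in EPSCs, 10.3 and 10.3 in ESCs, and 22.8 and 23.5 in NSCs. The difference of hybrid cells from EPSCs was −0.68 ± 0.06 (adjusted p = 0.000349). Setdb1, a histone methyltransferase that acts at the protocadherin locus in neurons, was at 29.8 and 29.9 FPKM in hybrid cells, against 34.9 and 35.6 in EPSCs (−0.23 ± 0.05, adjusted p = 0.00748, and 0.0730 with these 2 groups alone). Ctcf, the insulator protein that loops promoters to enhancers, was between 47.2 and 61.0 FPKM in all 8 libraries and was not called between hybrid cells and EPSCs (adjusted p = 0.104, and 0.0460 without EPSC replicate 2 or 0.0464 without hybrid replicate 1).

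Of 20 listed partners and processing enzymes, 19 were tested, and against the same background 4 were higher and 6 lower in hybrid cells than in EPSCs. Against NSCs, 14 were lower and 3 higher in EPSCs (41.0% and 45.2% of all tested genes), and 15 were lower and 4 higher in hybrid cells (42.0% and 44.5%). Fyn, a kinase bound by some alpha protocadherins, was at 128 and 133 FPKM in NSCs and between 5.85 and 9.29 elsewhere. Adam10, the sheddase that cleaves gamma protocadherins, was at 64.0 and 70.0 in NSCs and between 5.87 and 11.3 elsewhere. Ptk2b, the kinase PYK2, which binds protocadherin cytoplasmic tails, stood the other way, at 0.134 and 0.0934 in NSCs and between 2.7 and 5.07 elsewhere.

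In the wider cadherin superfamily, 21 of 22 listed genes were matched and 17 tested, of which 5 were higher and 3 lower in hybrid cells than in EPSCs, against the same 22.5% and 21.9%. Cdh1, the E-cadherin of epithelial and pluripotent cells, was listed at 0 in both NSC libraries and was at 113 and 115 FPKM in ESCs, 145 and 136 in EPSCs, and 88.5 and 102 in hybrid cells. Cdh2, the N-cadherin of neural cells, was at 67.5 and 70.7 in NSCs and between 0.879 and 2.76 elsewhere. Cdh4 and Cdh11 were past the fold rule in hybrid cells against EPSCs. Cdh4 was at 4.01 and 3.66 FPKM in hybrid cells, against 0.806 and 0.600 in EPSCs, and 36.7 and 40.1 in NSCs. Cdh11, a cadherin of mesenchymal cells, was at 8.57 and 5.85 in hybrid cells, 2.15 and 1.84 in EPSCs, and 1.01 and 1.14 in NSCs. The NSC level was thus high for Cdh4 and low for Cdh11.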

How the data were processed

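The authors sequenced stranded poly-A libraries (TruSeq, 2 per group), trimmed reads with skewer, aligned them to mm10 with STAR 2.7.9a and deposited FPKM values per gene from Cuffnorm of Cufflinks 2.2.1. The annotation, strand setting, and library normalization are not given in the sources used here. All 8 columns matched a sample (0 others).

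limma 3.58.1 (R 4.3.3; lmFit, contrasts, and eBayes with trend) was fitted on log2(FPKM + 1) with 4 groups and 8 libraries (4 residual and 3.25 prior degrees of freedom), on the 13239 genes with a group mean of at least 1 FPKM, two-sided. Tested on simulated data for EPSCs against NSCs (10967 genes), the fit recovered 100 of 100 genes changed by 2 on the log2 scale and 100 of 100 changed by 1, and called 8 unchanged genes. The simulation left out genes of low mean level, gave all genes the same relative spread, and changed few genes, in EPSCs alone. It therefore does not cover calls at low levels. The fold rule was applied to group means. Depth was estimated from the steps of low FPKM values in 2247 single-transcript genes longer than 1500 bases, assuming fragments of 200 bases, and beta fragments came from the same conversion.

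The protocadherin genes and the lists were chosen with earlier results of these data known. Named with values were non-clustered genes with a group mean of at least 1 FPKM, the 5 highest genes of each clustered class, C-type genes, genes past the fold rule between hybrid cells and EPSCs or highest in hybrid cells, and of the lists Cdh1, Cdh2, Ctcf, Smchd1, Dnmt3a, Dnmt3b, Setdb1, and some of those past the fold rule in any comparison (Cdh4, Cdh11, Fyn, Adam10, Ptk2b, and Lum). The last 4 of these, and the other protocadherin genes given with values, were chosen after their values were seen. Sequences are from RefSeq (GRCm38.p6). Alternatives were other pseudocounts, filters, scalings, sample sets, a replicate block, and leaving out each library.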

Additional observations from a re-analysis of the deposited data

How the results depend on the processing

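With 2 libraries per group, 1 line each, the spread between lines was not measured. Low FPKM values rest on few fragments, and single alpha and gamma genes on shared exons. The counts of genes called by limma moved with the filter, the groups in the fit, and the pseudocount. With a mean of at least 3 FPKM, 21 protocadherin genes were tested, and 21 were called against NSCs in each of the 3 comparisons, 4 in hybrid cells against EPSCs, 4 in EPSCs against ESCs, and 5 in hybrid cells against ESCs. Of all 11518 genes then tested, 9999, 10047, and 9861 were called against NSCs in EPSCs, hybrid cells, and ESCs, and 5425, 7285, and 7715 in the other comparisons in the order given. With only the 2 groups compared in the fit, the last 3 counts were 4, 3, and 5, but the filter was then applied to these groups alone and left 8, 4, and 8 protocadherin genes to test, and of all genes 3388 of 11662, 7830 of 11784, and 7973 of 12021 were called. With log2(FPKM + 0.1), 12 genes were called in hybrid cells against EPSCs, all higher, 4 of them beta genes, while 5845 of all 13239 tested genes were called in either direction. Scaling each library to a sum of 1000000 moved the median difference of all genes by over 0.1, to −0.48 for EPSCs against NSCs, −0.50 for hybrid cells against NSCs, and −0.46 for ESCs against NSCs, and the share of higher genes among all called for EPSCs against NSCs from 52.4% to 35.0%, for hybrid cells from 51.5% to 34.5%, and for ESCs from 50.5% to 34.2%. The count past the fold rule against NSCs was then 35 in each comparison, all lower (18.0% to 19.0% of detected genes), and 2 for hybrid cells against ESCs (3.03% of detected genes were higher). With thresholds of 2 in the fold rule, it was 1 for hybrid cells against EPSCs (2.49%) and 2 for hybrid cells against ESCs (5.96%). Adding 0.1 FPKM to the means changed no count by over 1.5 times. Leaving out a library left its group with 1, so the number of called protocadherin genes is not given for those settings. Some of the single calls lost or gained in them are named with the results above. Others are not, such as Pcdhga7 (hybrid cells against ESCs), Cdh2 (hybrid cells against EPSCs), and Pcdhgc5 (EPSCs against NSCs). Ctcf and Setdb1 reversed against NSCs. For Ctcf, the log2 difference under scaling was −0.59 in hybrid cells, −0.47 in ESCs, and −0.40 in EPSCs, and under quantile normalization −0.081 in EPSCs and −0.25 in hybrid cells. For Setdb1 it was −0.52 in EPSCs and −0.16 in ESCs under scaling and −0.15 in EPSCs under quantile normalization. Scaling multiplies all genes of a library by the same factor, and the median difference of all genes moved the same way, as given above. The cause under quantile normalization was not tested. Nothing in the labels ties libraries of equal replicate number together. The correlation of their deviations across genes was 0.28 for hybrid cells and EPSCs and between −0.11 and 0.07 for the other comparisons. With the replicate block, the counts were 7 in hybrid cells against EPSCs, 8 in EPSCs against ESCs, and 10 in hybrid cells against ESCs. Among all 13239 tested genes, 6060, 8250, and 8757 were then called, respectively. Against NSCs, the block gave 42 protocadherin genes for EPSCs, 42 for hybrid cells, and 41 for ESCs. The corresponding numbers among all tested genes were 11441, 11511, and 11265. Pcdhgb1 was no longer called in hybrid cells against ESCs (adjusted p = 0.0558). With the numbers of the NSC libraries exchanged (added after seeing the data), 41 genes were called in ESCs against NSCs.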
